A study of Mus musculus with 12 samples.

Results

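The nuclear factor I genes Nfia, Nfib and Nfix were examined for histone acetylation in fibro-adipogenic progenitors (FAPs), the mesenchymal cells of skeletal muscle that can become adipocytes or fibroblasts. All 3 were selected on their H3K27ac covered length in earlier results of these same lists, out of 10944 protein-coding genes that both H3K27ac lists of TSA-treated mice reach and 20665 on chromosomes 1 to 19. Every peak that overlapped a gene body or the 10000 bp on either side was taken, and this stretch is called the window. The series holds 12 samples, of which 8 are chromatin immunoprecipitations, 1 library per combination of mark, age and treatment, and 4 are inputs that were not used here. Libraries were made with antibodies to histone H3 acetylated on lysine 27 (H3K27ac) or on lysines 9 and 14 (H3K9/14ac). All mice were mdx on a C57Bl6 background, a dystrophin-deficient model of Duchenne muscular dystrophy, so no healthy muscle stands beside them. Young mice were 1.5 months old and old mice 12 months old. TSA (trichostatin A, an inhibitor of histone deacetylases) was given into the peritoneum at 0.6 mg/kg/day for 15 days, and vehicle mice received saline. FAPs were sorted by flow cytometry; the gate, and the number of animals behind a library, are not given in the sources used here.

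Nuclear factor I proteins are transcription factors that bind DNA as dimers, at a palindrome whose arms, TTGGC and GCCAA, stand 5 bases apart, or more weakly at one arm of it. Nfix is known in muscle for the switch from embryonic to fetal gene programmes and for its part in muscle stem cells, while Nfia and Nfib are best known from glia, lung and other developing organs. H3K27ac marks active promoters and enhancers, and H3K9/14ac is found mainly at active promoters. Deacetylases remove both marks, and TSA slows that removal.

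On GRCm38, Nfia spans 540811 bp (chr4:97578066-98118876), Nfib 216579 bp (chr4:82290173-82506751) and Nfix 96527 bp (chr8:84704712-84801238). Nfia lies on the plus strand and Nfix on the minus strand. The lists as used here end at different places along the genome. Nfia and Nfib were reached in the young TSA, old vehicle and old TSA lists of both marks, whereas Nfix was reached only in the H3K27ac lists of young TSA and old TSA. No young vehicle list reached a member, so TSA could be set against vehicle in old mice only, and for Nfia and Nfib only. With 1 library per group there was no test between groups and no replicate spread. Intervals given below are exact 95% intervals that cover counting error only, and sequencing tags are not independent molecules.

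RefSeq promoter windows (GRCm38.p6, 250 bases before to 50 after an annotated start) were matched for Nfia (1 window) and Nfix (4 windows). All lie inside the gene bodies. The Nfia window also lies inside the lncRNA gene E130114P18Rik (chr4:97567875-97584591), so peaks over it may belong to either gene. The 3 windows printed here are the Nfia window, whose peak cover differed between the lists, the Nfix window with the most TTGGC or GCCAA arms, and the Nfix window under its richest old TSA peak. Capitals mark TTGGC and GCCAA, and each sequence reads 5′ to 3′ on its gene's strand.
Nfia, chr4:97581693-97581992, plus strand: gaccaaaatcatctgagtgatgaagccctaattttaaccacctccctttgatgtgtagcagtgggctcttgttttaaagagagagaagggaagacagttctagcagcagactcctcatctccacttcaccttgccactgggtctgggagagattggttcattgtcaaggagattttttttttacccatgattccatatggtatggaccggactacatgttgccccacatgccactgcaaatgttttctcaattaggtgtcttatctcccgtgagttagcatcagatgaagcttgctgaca
Nfix, chr8:84772826-84773125, minus strand: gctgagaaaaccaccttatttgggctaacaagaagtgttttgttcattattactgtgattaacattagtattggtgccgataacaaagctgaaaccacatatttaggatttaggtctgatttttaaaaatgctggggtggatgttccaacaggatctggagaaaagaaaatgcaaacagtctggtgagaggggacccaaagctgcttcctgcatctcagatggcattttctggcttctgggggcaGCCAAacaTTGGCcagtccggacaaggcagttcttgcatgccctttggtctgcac
Nfix, chr8:84780033-84780332, minus strand: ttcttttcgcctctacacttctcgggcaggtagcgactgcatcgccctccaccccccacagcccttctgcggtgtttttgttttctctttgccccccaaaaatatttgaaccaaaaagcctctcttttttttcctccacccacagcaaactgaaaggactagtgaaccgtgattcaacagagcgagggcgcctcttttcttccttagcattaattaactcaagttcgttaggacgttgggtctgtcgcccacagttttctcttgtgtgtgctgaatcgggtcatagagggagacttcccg

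The second sequence holds 2 arms, GCCAA at bases 246 to 250 and TTGGC at bases 254 to 258, in the opposite order to the full palindrome. Windows starting at 84773361 and 84775779 hold 1 arm each, and the other 2 member windows hold none. An arm on either strand was found in 46.7% of all 32851 promoter windows of this length, and the full palindrome (TTGGC, 5 bases of any kind, GCCAA) in 12 windows (0.0365%), none of them of a member. The third sequence holds a match to the AP-1 motif TGANTCA at bases 170 to 176, a motif present in 7.81% of windows. The CCAAT box (CCAAT or ATTGG), found in 37.4% of windows, overlaps the TTGGC arm of the second sequence at bases 253 to 257. It was also found in the Nfia window and in the Nfix windows starting at 84773361 and 84775779. The GC box (GGGCGG or CCGCCC, in 35.7% of windows) matched the window starting at 84773361 only. The E-box CACGTG (7.15%) and the TATA box (TATAAA or TTTATA, 13.6%) matched no member window.

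Acetylation over these windows was as follows. All 4 Nfix windows lay wholly under H3K27ac peaks in both the young TSA and the old TSA list. Of all promoter windows reached, 33.3% held an H3K27ac peak in the young TSA list, 29.1% in that of old vehicle and 34.5% in that of old TSA. The Nfia window was wholly covered in old vehicle (a peak of 596 tags) and in old TSA (a peak of 631 tags). In young TSA the nearest peak, of 337 tags, began 244 bp away. No H3K9/14ac peak touched the Nfia window in the 3 lists that reach it, where the nearest ones lay 1672 (young TSA), 2553 (old vehicle) and 44 bp (old TSA) away. Of all promoter windows reached, 38.7%, 36.1% and 36.5% held an H3K9/14ac peak in these lists.

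Of the members, Nfix had the largest share of its window under H3K27ac peaks. Peaks covered 49441 bp of its window in young TSA (37 peaks, 8757 tags) and 73985 bp in old TSA (59 peaks, 14726 tags). These are 42.4% and 63.5% of the window, against medians of 4.41% and 4.46% over genes with a peak. Within the gene body alone, cover was 46.5% in young TSA and 71.7% in old TSA. By share of the window covered, Nfix ranked 26 of 11341 genes in young TSA and 8 of 10944 in old TSA. By covered length it ranked 2 and 1. These ranks describe what Nfix was chosen for.

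Nfia carried slightly more acetylated length than Nfix in young TSA and less in old TSA, spread over a far longer gene. H3K27ac peaks covered 51307 bp in young TSA (43 peaks, 11787 tags), 49044 bp in old vehicle (51 peaks, 9880 tags) and 62159 bp in old TSA (60 peaks, 13670 tags). The shares of the window were 9.15%, 8.75% and 11.1%, the highest being in old TSA. Covered length ranked Nfia 1 of 11341, 1 of 5491 and 2 of 10944 genes, but share of the window ranked it 1528, 540 and 1292.

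Nfib had the least H3K27ac of the members by length. Peaks covered 39800 bp in young TSA (45 peaks, 9326 tags), 29480 bp in old vehicle (34 peaks, 5832 tags) and 37349 bp in old TSA (44 peaks, 8344 tags). The shares of the window were 16.8%, 12.5% and 15.8%, with old vehicle the lowest. Per length, the members stood in the order Nfix, Nfib, Nfia in each list that reached them: tags per kb of window were 75.2, 39.4 and 21.0 in young TSA and 126, 35.3 and 24.4 in old TSA. In old vehicle, Nfib had 24.7 and Nfia 17.6 tags per kb.

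H3K9/14ac was sparser. At Nfia it covered 14201 bp in young TSA (19 peaks, 2976 tags), 9730 bp in old vehicle (15 peaks, 2189 tags) and 14104 bp in old TSA (20 peaks, 2294 tags). At Nfib it covered 8947 bp (14 peaks, 1897 tags), 5601 bp (12 peaks, 1398 tags) and 7631 bp (7 peaks, 1365 tags) in the same order. Old vehicle had the shortest cover at both genes, and the fewest tags at Nfia but not at Nfib. As shares of the window these are at most 3.78%, and at Nfia all 3 lay below the median of genes with a peak (3.19%, 2.79% and 3.57%).

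**Figure D1:**
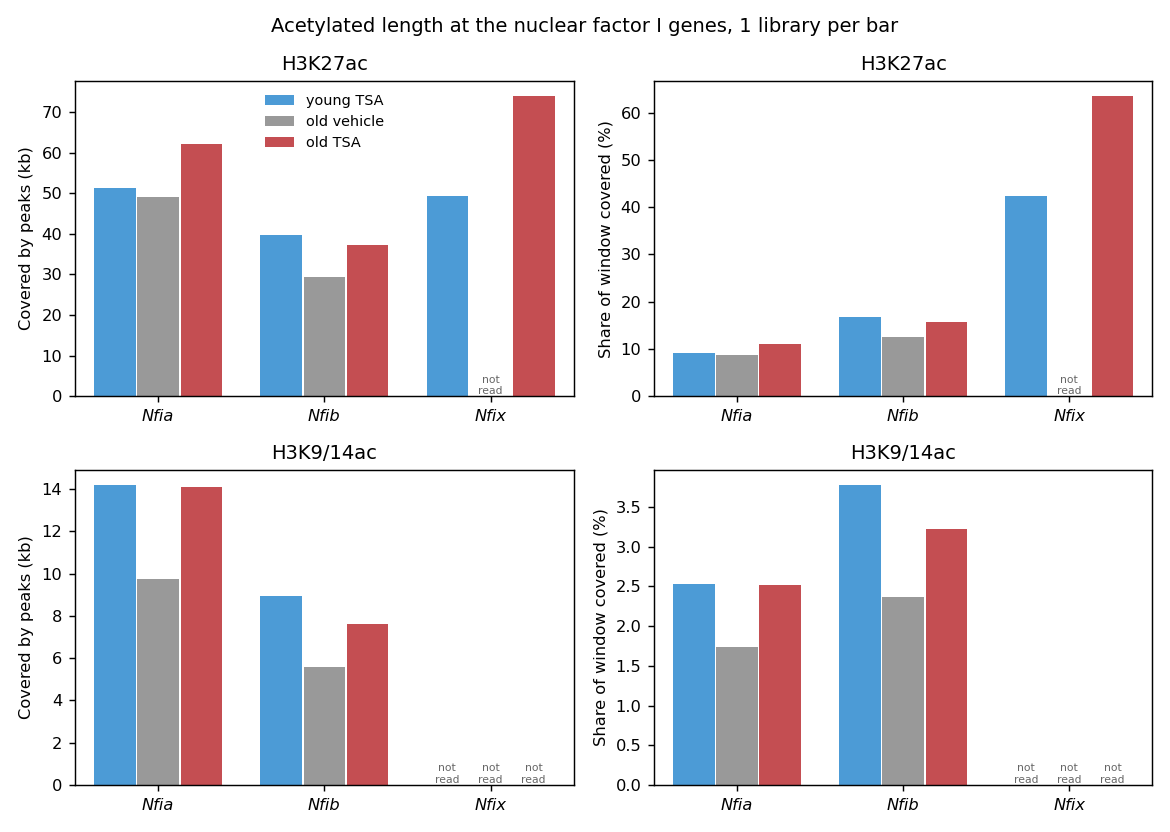
Bars give the length covered by peaks (left, kb) and the share of the gene window covered (right, %) for H3K27ac (top) and H3K9/14ac (bottom), with 1 library per bar and no error bars. Nfix stands highest in old TSA H3K27ac, at 63.5% of its window, and "not read" marks lists that end before Nfix.

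Beyond the windows, the next peaks lay some way off. In old TSA, the nearest H3K27ac peak beyond the Nfia window lay 667.552 kb below the gene and 125.186 kb above it. Beyond the Nfib window the distances were 126.081 and 22.567 kb, and beyond the Nfix window 15.479 and 30.598 kb. The outermost Nfix peaks inside the window ended 4.762 kb below the gene (278 tags) and began just inside its upper end (62 tags). The Nfix window holds the whole of Lyl1, a bHLH transcription factor gene of blood cells (chr8:84701423-84704716), and part of the tRNA methyltransferase gene Trmt1 (chr8:84686324-84699808), so peaks at the lower end may belong to either.

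Within the genes, peaks lay differently. Nfix was covered along its whole length: over 4 equal parts of the window, from the lower coordinate, cover was 39.4%, 44.8%, 46.4% and 39.1% in young TSA and 60.0%, 78.0%, 61.7% and 54.3% in old TSA. Nfib was densest in the uppermost part, with 29.8% in old vehicle and 33.4% in old TSA. Its largest region (chr4:82506578-82513181) began at the upper end and ran into the neighbouring lncRNA gene Gm11266, with 2072, 1749 and 2256 tags (young TSA, old vehicle, old TSA). Nfia was densest in the second part, with 16.8%, 15.7% and 17.6% (young TSA, old vehicle, old TSA). There, inside the gene, lay its region with the most tags (chr4:97777606-97781328, 1495, 1185 and 1472 tags) and a second one (chr4:97750816-97755228, 1296, 991 and 1366 tags) that overlaps the lncRNA Gm38709.

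**Figure D2:**
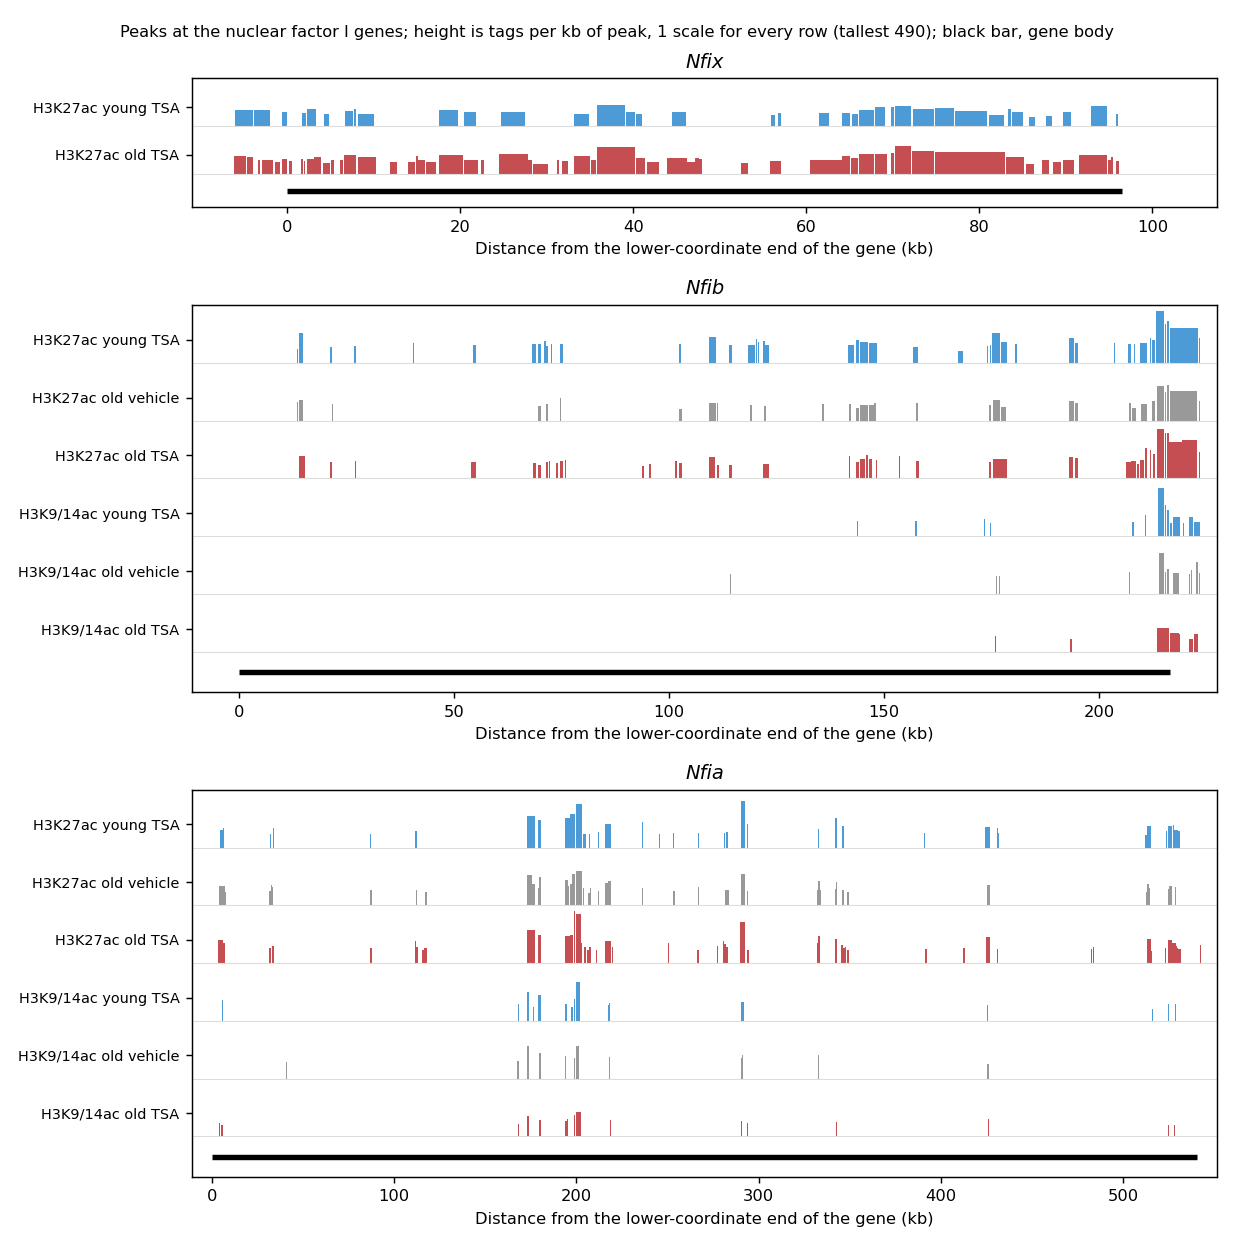
Each box is a peak placed by its distance in kb from the lower-coordinate end of the gene, with height giving tags per kb of peak and 1 row per library. Nfix peaks run along its whole gene body, covering 46.5% of it in young TSA and 71.7% in old TSA, while Nfib peaks gather at the upper end and Nfia peaks in a few blocks.

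The marks overlapped at both genes with data for both. Of the H3K9/14ac peaks at Nfia, those overlapping an H3K27ac peak numbered 17 of 19 (young TSA), 12 of 15 (old vehicle) and 19 of 20 (old TSA). At Nfib the counts were 13 of 14, 11 of 12 and 7 of 7. Over all H3K9/14ac peaks the shares were 69.3%, 67.2% and 83.5%. The H3K9/14ac region with the most tags at Nfia (chr4:97777612-97780530, 844, 518 and 658 tags) lay within its H3K27ac region with the most tags. At Nfib it was chr4:82503781-82506450, just inside the upper end, with 885, 646 and 584 tags, and no H3K9/14ac peak lay in the lower 2 of the 4 parts of the Nfib window in any list.

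Among the 3 members, the old TSA and young TSA libraries differed most at Nfix. H3K27ac covered 24544 bp more in old TSA, the largest gain in bp of 6769 genes with a peak, followed by Tgfbr3, a TGF-beta co-receptor gene, with 16820 bp. Both lists entered the selection of Nfix, so its gain is a description. A gene counts as past the fold when old TSA over the other library exceeds 1.5 in either direction, after adding 500 bp or 10 tags. For covered length the ratio at Nfix after that addition was 1.491 (log2 0.58), just short of the fold, although it passed when the flanks were left out. A lower ratio was found at 88.8% of genes, so Nfix was not the most changed gene by ratio. By this measure 0 of 3 members were past the fold, against 13.5% of all genes. Relative tags, the log2 ratio of tags less its median over 13271 regions with a peak in both lists, were 0.71 higher at Nfix (interval 0.68 to 0.75). With that, 1 of 3 members was past the fold, against 18.3% of all genes in either direction and 13% upward, and 89.3% of genes had a lower value. Tags per kb of covered length at Nfix were 177 in young TSA and 199 in old TSA, so both the cover and the tags within it were higher in old TSA. By this measure Nfix was the lowest member in both lists. Nfia had 230 and 220, Nfib 234 and 223, and the medians over genes with a peak were 230 and 223.

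Nfia had 10852 bp more H3K27ac in old TSA than in young TSA, the gain ranked 8, with a log2 ratio of covered length of 0.27 and relative tags of 0.18 (interval 0.14 to 0.21). At Nfib the difference in cover was -2451 bp, with -0.09 for covered length and -0.20 for relative tags (interval -0.24 to -0.15). Over all 6769 genes the medians were 0.04 and -0.04. Nfia thus lay above and Nfib below both medians, each by less than the fold. Genes with a window within 1.5 times a member's own had higher medians for the log2 ratio of covered length. These were 0.32 over 96 genes for Nfia and 0.20 over 390 genes for Nfib, and both members lay below them.

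**Figure D3:**
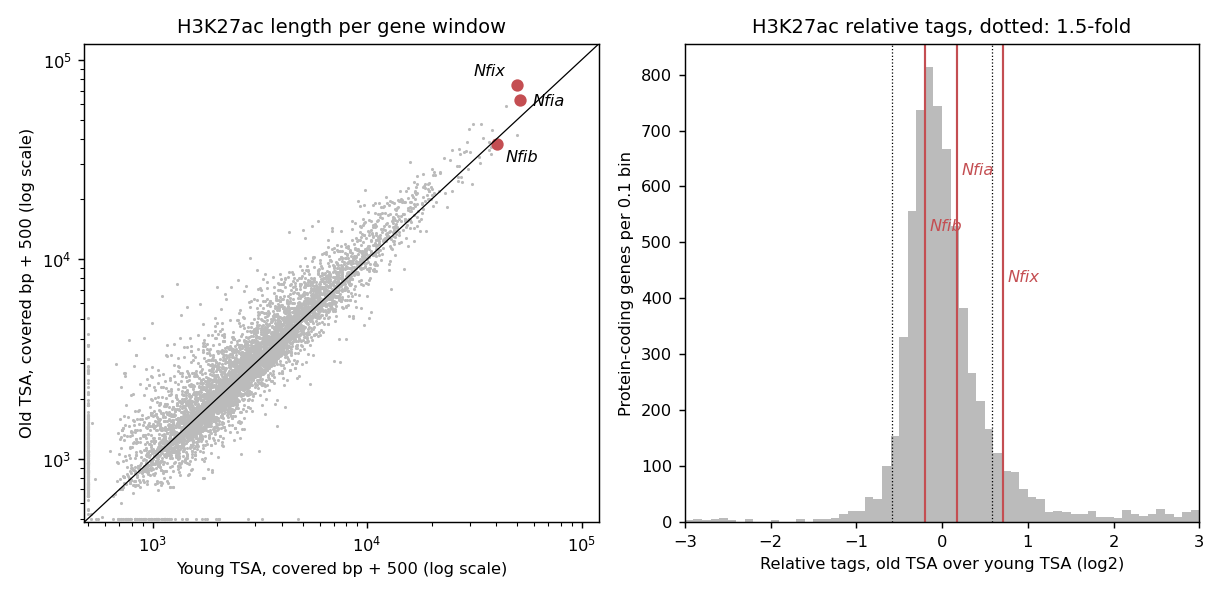
Left, each point is a protein-coding gene, with covered bp plus 500 in young TSA (x) and old TSA (y) on log scales and a line of equality. Right, the count of genes by log2 relative tags (old TSA over young TSA), where Nfix at 0.71 lies beyond the dotted 1.5-fold line and Nfia and Nfib do not.

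The Nfix gain was spread over many regions. All 37 young TSA peaks overlapped an old TSA peak, whereas 24 of the 59 old TSA peaks overlapped none in young TSA. Over all peaks of the stretch compared, 27.7% of old TSA peaks and 10.5% of young TSA peaks had no partner in the other list. Merged, these peaks gave 30 regions with a peak in both lists and 24 with a peak in old TSA only. The latter held 15116 bp (20.4% of the old TSA cover) and 2179 tags (14.8%), with between 34 and 206 tags each. The largest was chr8:84733160-84734890, inside the gene.

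Of the 30 shared Nfix regions, relative tags were higher in old TSA at 26 and lower at 4, with a median log2 ratio of 0.47. The counting interval lay above 0 at 21 and below 0 at 2, where 24.3% and 23.7% of all 13271 shared regions did. By position, chosen after the values were seen, the 24 shared regions reaching beyond 5 kb from the lower end of the gene were all higher (0.08 to 1.28). Of the 6 regions nearer to that end or outside it, 2 were higher and 4 lower (-0.46 to 0.14).

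The lowest Nfix region, chr8:84700909-84703120, lay over Lyl1, with 336 tags in young TSA and 251 in old TSA (-0.46, interval -0.70 to -0.22). The highest, chr8:84765173-84769812, went from 308 to 767 tags while its cover went from 2067 to 4565 bp (1.28, interval 1.09 to 1.48). The richest region, chr8:84779576-84787639, which contains the third printed window, held 1355 tags in 3 peaks in young TSA and 1996 tags in 1 peak of 8063 bp in old TSA (0.52, interval 0.42 to 0.62). The next, chr8:84740487-84744937, went from 943 to 1343 tags (0.47, interval 0.35 to 0.60).

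At Nfia, regions went both ways. Of 31 regions shared by young TSA and old TSA, 19 were higher and 12 lower in old TSA (median 0.06, range -1.02 to 1.55). The counting interval lay above 0 at 11 and below 0 at 4, where 24.3% and 23.7% of all 13271 shared regions did. The region with the most tags differed by -0.06 (interval -0.16 to 0.05). The region over its printed window (chr4:97581335-97585079) had 443, 596 and 771 tags (young TSA, old vehicle, old TSA), giving 0.76 (interval 0.59 to 0.94) against young TSA and -0.11 (interval -0.27 to 0.05) against old vehicle. Peaks without a partner numbered 17 of 60 in old TSA and 7 of 43 in young TSA, where 27.7% and 10.5% of all peaks had none.

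At Nfib most shared regions were lower in old TSA, 23 of 30 against young TSA, with a median of -0.28. The counting interval lay below 0 at 12 and above 0 at 2, beside 23.7% and 24.3% of all shared regions. The 2 largest differences were at chr4:82431820-82433141, with 216, 75 and 86 tags in the same order (-1.36, interval -1.74 to -0.998 against young TSA), and at chr4:82496537-82498770, with 156, 174 and 340 tags (1.09, interval 0.81 to 1.37). The largest region differed by 0.09 (interval -0.00 to 0.17). Peaks without a partner numbered 9 of 44 in old TSA and 11 of 45 in young TSA, beside the same 27.7% and 10.5%.

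**Figure D4:**
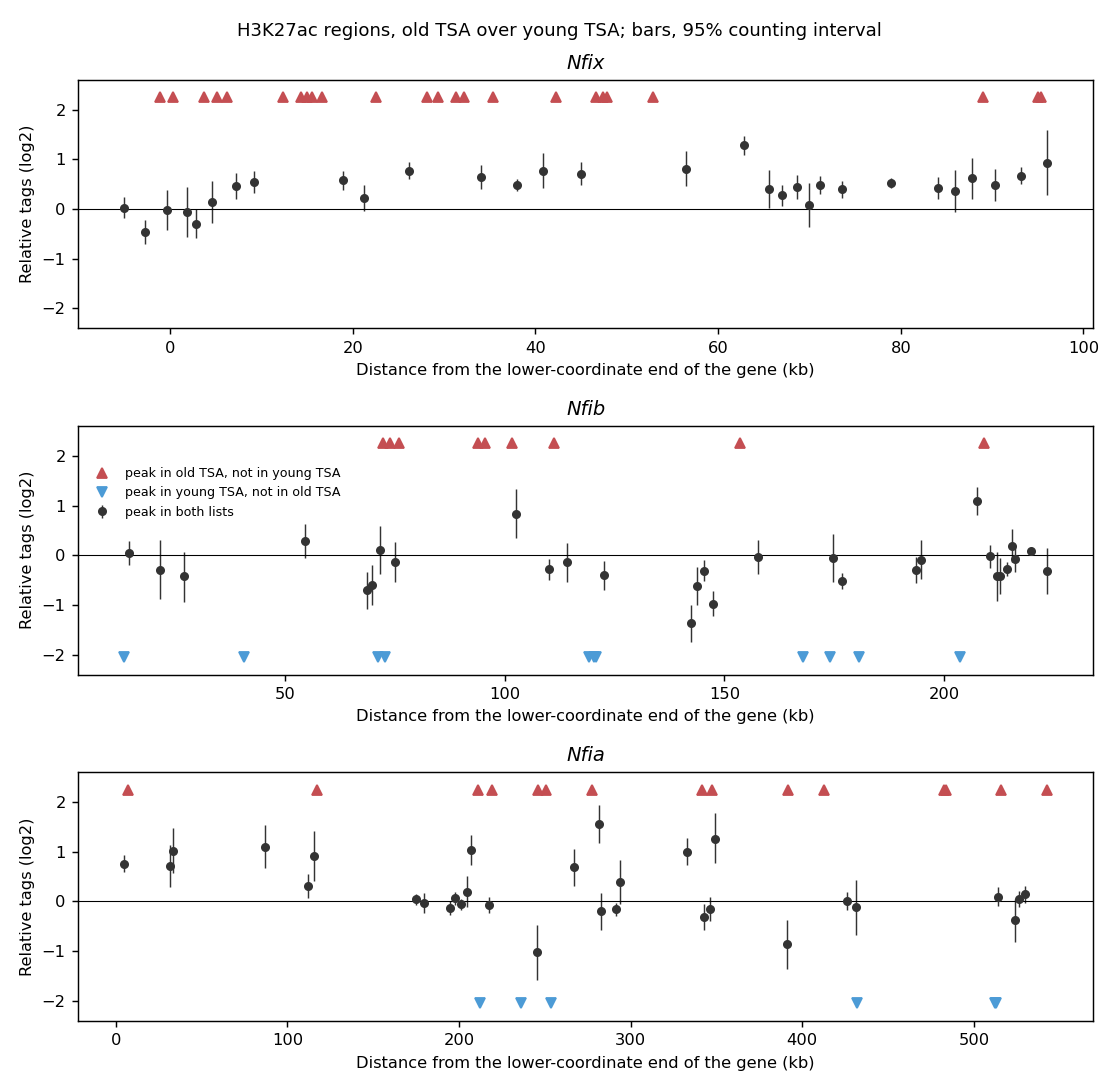
Points are H3K27ac regions with a peak in both lists, with distance in kb from the lower-coordinate end (x) and log2 relative tags, old TSA over young TSA (y), and bars are 95% counting intervals. Triangles mark regions with a peak in 1 of the lists only; at Nfix all 24 point up, and the points beyond 5 kb are all above 0.

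In old mice, TSA and vehicle could be compared at Nfia and Nfib. This comparison shares the old TSA library with the one above. H3K27ac cover was longer after TSA at both genes, by 13115 bp at Nfia (log2 0.34) and 7869 bp at Nfib (log2 0.34), close to the median of 0.30 over 3396 genes. For covered length 0 of 2 members were past the fold, against 26.8% of all genes. Relative tags were -0.01 at Nfia (interval -0.05 to 0.02) and 0.03 at Nfib (interval -0.01 to 0.08), with 0 of 2 past the fold against 20.9%. Relative to the regions shared by both lists, tags at these genes were thus nearly equal with and without TSA, whereas unscaled log2 ratios were 0.47 and 0.52. The median of relative tags over all 3396 genes was 0.13, above the values of both members. Peaks of old TSA without a vehicle partner numbered 19 of 60 at Nfia and 13 of 44 at Nfib, where 35.9% of all old TSA peaks had none. Vehicle peaks without a TSA partner numbered 7 of 51 and 5 of 34, where 6.52% of all had none.

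For H3K9/14ac, the old TSA list held fewer tags per region than either other list, the median log2 ratio over shared regions being -0.47 against young TSA and -0.46 against old vehicle. Against old vehicle, Nfia covered 4374 bp more, a gain ranked 2 of 3440 genes. The log2 ratio of covered length was 0.51, and relative tags were 0.52 (interval 0.44 to 0.61) from 2189 and 2294 tags. At Nfib the values were 0.41 and 0.42 (interval 0.31 to 0.53), from 1398 and 1365 tags. The raw tags were thus nearly level at both genes, and the relative tags carry the shift of the whole list. No member was past the fold by either measure (0 of 2), against 16.4% of genes for covered length and 20.3% for relative tags.

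Against young TSA, H3K9/14ac at Nfia differed by -0.01 in covered length and 0.09 in relative tags (interval 0.01 to 0.17). At Nfib the values were -0.22 and -0.00 (interval -0.11 to 0.09). Unscaled log2 ratios of tags were -0.37 at Nfia and -0.47 at Nfib. Again 0 of 2 members were past the fold, against 14.8% of 3574 genes for covered length and 20.3% for relative tags. A region across the upper end of Nfib (chr4:82506605-82509073) had 364, 270 and 407 tags (young TSA, old vehicle, old TSA), the highest in old TSA despite the lower list level.

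Genes with the pattern most like each member were sought by distance over log2 covered bp and log2 tags in the H3K27ac TSA lists, among genes with a window within 1.5 times its length. For Nfix these were Itpkb, an inositol trisphosphate kinase gene (distance 0.99), and Col4a2, a basement membrane collagen gene (1.22), of 1114. Itpkb had 37779 bp in young TSA and 43882 bp in old TSA, and Col4a2 had 49403 and 41260 bp. For Nfib they were Denn2b (0.61) and Rbpms, an RNA-binding protein gene (0.74), of 389. Denn2b had 33396 bp in young TSA and 47357 bp in old TSA, and Rbpms 34120 and 39828 bp. Both were covered longer in old TSA, unlike Nfib. For Nfia they were Tshz2, a zinc finger transcription factor gene (1.37), and Dnm3, a dynamin gene (2.07), of 95. Their log2 ratios of covered length were 0.06 (Tshz2, 36586 and 38045 bp) and 0.51 (Dnm3, 24347 and 34970 bp), beside 0.27 at Nfia.

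Other FAP and mesenchymal transcription factor genes were read from a fixed list of 19. Against young TSA, 3 had H3K27ac cover past the fold upward and 0 downward, where 10.8% and 2.7% of all genes did, with a median log2 ratio of 0.25 over the 19. By relative tags, 5 were past the fold upward, where 13% of all genes were, and 0 downward. The genes named next are the extremes by cover. Nr2f2, a nuclear receptor gene, had 8751 bp in young TSA and 17929 bp in old TSA. Tead1, a Hippo pathway factor gene, was lowest with 6530 and 6104 bp. Of 14 adipogenesis genes, 11 had a peak, with 2 past the fold upward by relative tags, and 1 upward and 0 downward by cover. That gene was Klf15, a pro-adipogenic zinc finger factor gene (2044 and 5031 bp), and the fatty acid transporter gene Cd36 was lowest (5536 and 4605 bp).

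Against old vehicle, 5 of 13 listed factor genes reached had H3K27ac cover past the fold upward and 0 downward, where 26.6% and 0.265% of all genes did. By relative tags, 3 of 13 were past it upward and 0 downward, where 20.9% of all genes were in either direction. Gli2, a Hedgehog effector gene, had the largest ratio of cover, with 2680 bp in old vehicle and 8312 bp in old TSA. Zeb2 had the smallest, with 14427 and 16315 bp. For adipogenesis genes it was 1 of 4, Prdm16 (1292 and 4251 bp), and Cd36 was smallest (3863 and 4605 bp). For H3K9/14ac cover, 0 of 13 factor genes were past the fold upward and 2 downward against young TSA, where 3.27% and 11.5% of all genes were. Against old vehicle it was 3 and 2 of 13, where 9.22% and 7.18% were. By relative tags it was 2 upward and 2 downward against young TSA, and 3 and 3 against old vehicle. In each comparison 20.3% of all genes were past the fold in either direction by relative tags. By cover, Zeb2, a repressor of epithelial genes, was highest in both comparisons (6179 bp in young TSA, 3567 in old vehicle, 9433 in old TSA). The homeobox gene Prrx2 was lowest (2820, 3580 and 1223 bp). Of the adipogenesis genes with an H3K9/14ac peak, 0 of 3 were past the fold upward and 1 downward by cover against young TSA. Against old vehicle, 1 of 2 was past it upward by cover.

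Marker genes of FAPs and of other muscle cells were read in the same lists as Nfix. All 8 FAP markers had H3K27ac peaks in both TSA lists, and each was covered longer in old TSA, with 68208 bp in young TSA and 93140 bp in old TSA in all. All 6 endothelial markers also had peaks, and each was covered less in old TSA, with 84361 and 66721 bp. By relative tags the FAP markers ranged from -0.08 to 1.03 and the endothelial markers from -1.17 to -0.26. Of all genes with a peak, 55.8% were covered longer and 44.2% less in old TSA. Muscle stem cell markers Pax7, Myod1 and Cdh15 had no H3K27ac peak in either list, nor had the macrophage markers Ptprc and Itgam or the muscle fibre markers Acta1, Ckm and Atp2a1. Summed cover was 3205 and 3760 bp for the muscle stem cell list, all of it at Vcam1, 403 and 2015 bp for the 4 macrophage markers reached, and 8301 and 9075 bp for the muscle fibre list. The part of cell composition in the Nfix difference was not tested. In such bulk samples, fewer cells of a type and less of a mark per cell cannot be told apart.

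The same markers bear on the other comparisons. Against old vehicle, all 6 FAP markers reached had longer H3K27ac cover in old TSA (48124 and 68604 bp), as had all 4 endothelial markers reached (33113 and 53749 bp) and 87.6% of all genes with a peak. By relative tags these FAP markers ranged from -0.32 to 1.14 and these endothelial markers from 0.13 to 0.44. For H3K9/14ac, the 6 FAP markers held 10921, 13515 and 15496 bp (young TSA, old vehicle, old TSA), and the 4 endothelial markers 22631, 16653 and 13058 bp. Single markers went both ways: in old TSA, 5 FAP markers were longer and 1 shorter than in young TSA, and 4 longer and 2 shorter than in old vehicle. Of the endothelial markers, 1 was longer and 3 were shorter in each comparison. For the macrophage, muscle stem cell and muscle fibre markers reached, H3K27ac cover was 471, 3351 and 7204 bp in old vehicle. In old TSA it was 2015, 3760 and 9075 bp. Their H3K9/14ac cover was 2219, 563 and 7950 bp in young TSA and 1884, 631 and 6512 bp in old vehicle. In old TSA it was 1149, 862 and 6387 bp. Myod1 and Ckm also had H3K9/14ac peaks in old TSA (1410 and 542 bp), beyond the reach of the young TSA and old vehicle lists. The part of cell composition in the values at Nfia and Nfib was not tested.

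The lists themselves differed in extent. Over the stretch compared, H3K27ac peaks held 4159284 tags in old TSA and 3785282 in young TSA, and 2156341 in old TSA and 1375708 in old vehicle. H3K9/14ac peaks held 826505 and 1221741, and 807010 and 1136407 tags. Across regions shared by the 3 H3K9/14ac lists, young TSA and old vehicle were the most alike (Spearman's rho 0.92 over 3467 regions), although they differ in both age and treatment. The margin was small, as old TSA gave 0.91 with young TSA and 0.89 with old vehicle. For H3K27ac, young TSA and old vehicle were the least alike (0.88 over 5561 regions), where old TSA gave 0.92 and 0.93. The values of H3K9/14ac in old TSA at Nfia and Nfib rest on that 1 library.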

How the data were processed

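Peak lists of 8 immunoprecipitated libraries were used. Per the file headers, HOMER's program for differential peaks wrote each list for a single library, and the tag column holds whole-number tag counts per peak that the authors deposited without normalization. Tools named without a role in the submitters' processing notes were MACS2, HOMER, TopHat2 2.0.9, Bowtie 0.12.7, HTSeq 0.6.1p1 and DESeq2, and the build was GRCm38. Each list as used here breaks off inside 1 incomplete line, which was left out, and a gene was read only in lists that pass the end of its window. Library totals are not given in the sources used here. Relative tags were therefore scaled from tags in peaks, by the median log2 ratio over regions shared by both lists.

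The members and gene lists were chosen with earlier results of these data known. Covered length is the sum of peak widths (end minus start) clipped to the gene body with 10000 bp on either side, and tags of clipped peaks were shared out by length. Ratios used 500 bp and 10 tags as pseudocounts. Relative tags were centred on regions with a peak in both lists, peaks that overlap or touch being merged. Tag intervals are exact conditional binomial (Clopper-Pearson). Gene positions and promoter windows came from RefSeq tables of GRCm38.p6. Besides members, the genes named are those inside a member's window, the 2 most like each member, and the highest and lowest of each list (FAP and mesenchymal transcription factors, adipogenesis, and 5 marker lists). Tgfbr3, second by gain, was added after its value was seen. On simulated tags for the old against young TSA H3K27ac comparison (10944 genes), 100% of 200 genes changed by a known fold were recovered. This checked the calculation on tags only. No replicate spread was known that could be simulated, so the recovery does not show how reliable differences between real libraries are. It does not bear on covered length. Python 3.11.15, numpy 2.4.6, pandas 2.3.3 and scipy 1.17.1 were used. Alternatives changed the flank, the pseudocount, the scaling, the length of the lists, the peak width kept, the minimum cover and the overlap that counts as shared.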

Additional observations from a re-analysis of the deposited data

How the results depend on the processing

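Relative tags at Nfix stayed past 1.5-fold under 9 of 9 alternatives (0.61 to 0.79). Not all of these could move it. The minimum cover drops other genes only, counting clipped peaks whole left the value the same, and a pseudocount of 1 tag gave 0.714. Covered length, at 0.51 to 0.63, passed it under 3 of 6: with no flank, with 2000 bp flanks and with the upper 50% of peaks by width, each giving 1 member past the fold. Other members stayed within the fold for H3K27ac. For H3K9/14ac against old vehicle, 1 member passed with the upper 50% of peaks and 2 with lists of equal length, by cover and by relative tags alike. Without scaling, relative tags there fell to 0.07 at Nfia and -0.03 at Nfib. Against young TSA, H3K9/14ac cover at Nfib was 0.24 with the upper 50% of peaks, from -0.22.

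Counts over all genes moved as follows. With the upper 50% of peaks, genes past the fold by cover went from 915 to 1512 (H3K27ac, young TSA), 528 to 999 (H3K9/14ac, young TSA) and 564 to 1129 (H3K9/14ac, old vehicle), and by relative tags from 725 to 1114 and 699 to 1206 for H3K9/14ac. With at least 1000 bp covered, which tests fewer genes, relative tags gave 781 (from 1239) and 395 (from 709) for H3K27ac and 396 and 411 for H3K9/14ac, and cover gave 321 and 366. Without scaling, relative tags gave 1830 for H3K27ac against old vehicle, and 1681 and 1503 for H3K9/14ac. The share of those genes higher in old TSA went from 37.8% to 5.12% and from 45.2% to 7.78%. For H3K27ac against young TSA it went from 70.8% to 57.9% when scaled by all tags in peaks, and for H3K9/14ac to 48%. With lists of equal length it went to 49.8% for H3K27ac against young TSA, and for H3K9/14ac to 57.0% and 63.4%, which turned the prevailing direction. A pseudocount of 100 bp gave 868 by cover for H3K9/14ac against old vehicle. The cause of the other moves was not tested. No paired analysis was possible because each group has 1 library and the labels carry no replicate numbers. Tags in peaks set the precision, and no replicate error is known.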
